A study of Mus musculus with 14 samples.

Results

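The genes described here are 49 mouse genes of mitosis, the spindle and the kinetochore, chosen by name as a functional group and matched on the gene names of the count table. All 49 were in the table of 55335 genes and all 49 were among the 21509 genes that passed the filter on low counts, so none was lost before testing. The libraries were made from FACS-sorted bone marrow cells (lineage negative, CD45 negative, TdTomato positive) of Cdh5 CRE Rosa26 TdTomato mice, in which Cre under the endothelial Cdh5 gene switches on a red reporter. That genotype is shared by every group. The untreated group had 4 libraries, total body irradiation with 500 cGy from a caesium source (TBI) had 5, radioimmunotherapy with 20 µCi of a non-targeted IgG antibody (IgG RIT) had 3, and 20 µCi of a CD45-targeted antibody (CD45 RIT) had 2. The isotope of the CD45-targeted therapy is astatine, per the series title. Cells of the treated groups were harvested 8 days after treatment. The labels give no age for the mice and do not say whether the libraries of a group came from separate mice, so p-values measure only the spread between these libraries.

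Mitosis separates duplicated chromosomes. Cyclin-dependent kinase 1 with cyclins A and B drives entry, the kinetochore joins each centromere to spindle microtubules, and the spindle checkpoint holds back the anaphase-promoting complex until all chromosomes are attached. The complex then marks securin and cyclin B for destruction, separase opens cohesin, and the central spindle guides the cut between the daughter cells. In the marrow most dividing cells are blood precursors, whereas endothelial cells of the adult marrow divide rarely at rest. Many mitosis genes are transcribed late in the cell cycle through promoter elements called the cell cycle genes homology region (CHR) and the CCAAT box, bound by the MuvB and NF-Y complexes.

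Promoter sequence is shown because all 49 members had changes of the same sign in TBI and in IgG RIT below. RefSeq windows of the GRCm38.p6 build were matched to 40 of the 49 members, and the 250 bases upstream of the start were searched on both strands for TTTGAA or TTTAAA (the CHR word) and for CCAAT. The 9 members with no window in the table were Aurkb, Ccna2, Cdc25c, Incenp, Kif20a, Nsl1, Smc4, Spc24 and Tpx2. A CHR word was present in 19 members, 47.5% of those matched, and in 25.2% of all 32851 windows of the same length. CCAAT was present in 29 members, 72.5%, against 33.8% of all windows, and 18 members (45.0%) held at least 2 copies, against 10.1% of all windows. Both words occurred in 16 members, 40.0%, against 8.8% of all windows, and neither occurred in 8: Mad2l1, Pttg1, Dsn1, Ndc80, Nuf2, Rangap1, Anln and Ncaph. A match is a description of letters and not a bound site. Median log2 fold changes against untreated for members with a CHR word and for those without one were 0.79 and 0.82 in TBI, 1.35 and 1.36 in IgG RIT, and -0.93 and -0.70 in CD45 RIT, over 19 and 21 genes.

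The sequences below are the 3 most abundant members with a CHR word and the 2 most abundant with neither word, 5′ to 3′ on the gene's strand, with the words in capitals (either strand, so CCAAT can read ATTGG and TTTGAA can read TTCAAA). Birc5 lies on the + strand at chr11:117848987-117849236 and holds a single CHR word 220 bases upstream of the start. Ube2c lies on the + strand at chr2:164769679-164769905, shown up to 24 bases before the start, and holds 6 CCAAT words, 2 of which overlap on opposite strands, and a CHR word 29 bases before the RefSeq start. That start lies 31 bases inside the gene model used for counting, so this CHR word falls within that model. Mki67 lies on the - strand at chr7:135716380-135716629 and holds 3 CCAAT words and CHR words 116 and 98 bases upstream. Rangap1 (- strand, chr15:81730004-81730169, shown up to 85 bases before the RefSeq start) and Mad2l1 (+ strand, chr6:66534971-66535220) have no capitals. The RefSeq start of Rangap1 lies 15611 bases inside the gene model that the count table uses. That of Mad2l1 lies 169 bases before the start of its gene model, so the bases next to the model's start were not searched.
Birc5: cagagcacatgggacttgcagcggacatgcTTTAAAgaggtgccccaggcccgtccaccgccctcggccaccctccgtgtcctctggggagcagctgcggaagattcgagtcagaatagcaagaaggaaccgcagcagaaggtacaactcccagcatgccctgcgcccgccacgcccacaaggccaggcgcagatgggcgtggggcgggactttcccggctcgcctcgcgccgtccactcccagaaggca
Ube2c: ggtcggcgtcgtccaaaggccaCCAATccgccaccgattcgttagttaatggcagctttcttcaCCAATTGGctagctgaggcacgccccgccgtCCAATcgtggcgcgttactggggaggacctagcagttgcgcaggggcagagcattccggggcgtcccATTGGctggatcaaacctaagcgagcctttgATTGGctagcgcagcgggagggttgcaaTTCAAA
Mki67: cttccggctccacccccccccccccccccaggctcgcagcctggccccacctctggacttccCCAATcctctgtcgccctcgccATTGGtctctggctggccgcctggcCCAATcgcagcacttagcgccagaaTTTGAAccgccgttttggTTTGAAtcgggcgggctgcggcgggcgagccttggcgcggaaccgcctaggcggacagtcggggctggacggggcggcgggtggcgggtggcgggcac
Rangap1: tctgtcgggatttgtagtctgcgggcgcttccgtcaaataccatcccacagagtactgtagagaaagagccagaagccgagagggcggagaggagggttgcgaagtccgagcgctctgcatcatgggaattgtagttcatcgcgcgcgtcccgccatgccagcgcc
Mad2l1: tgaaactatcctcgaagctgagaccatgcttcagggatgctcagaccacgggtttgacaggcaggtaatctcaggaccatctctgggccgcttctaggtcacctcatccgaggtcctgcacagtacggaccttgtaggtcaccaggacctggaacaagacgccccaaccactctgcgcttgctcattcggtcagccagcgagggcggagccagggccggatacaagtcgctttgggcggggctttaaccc

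Total counts ran from 16412779 to 31077588 per library, and genes with at least 1 count from 17700 to 26752. In the 12 libraries other than CD45 RIT no member was at 3 counts, the floor used here, or fewer. Some libraries stood apart from their group. TBI replicate 6 correlated with the other 4 TBI libraries at 0.91 to 0.92 over log2 values of all tested genes, against 0.96 to 0.98 among those 4. Untreated libraries correlated with each other at 0.91 to 0.94 and IgG RIT libraries at 0.92, but the 2 CD45 RIT libraries at only 0.67. CD45 RIT replicate 2 had the fewest detected genes (17700) and replicate 1 the next fewest (20994). The library numbers in the labels lie between 1 and 9 for untreated and TBI replicates 1, 3, 4 and 5, and between 10 and 16 for TBI replicate 6 and both RIT groups, so for RIT against untreated the treatment and the numbering cannot be told apart.

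The endothelial label was checked against markers. Cdh5 itself had 0 to 6 counts in every library and 0 in 9 of the 14. Summed over 20 endothelial genes the level was 158 to 213 CPM in untreated, 61.7 to 141 in TBI, 63.4 to 70.4 in IgG RIT, and 92.7 and 363 in CD45 RIT. The summed erythroid level (19 genes, globins among them) was far higher: 12809 to 19851 in untreated, 34750 to 56652 in 4 of the TBI libraries, 194767 in TBI replicate 6, 148934 to 158659 in IgG RIT, and 199113 and 48174 in CD45 RIT replicates 1 and 2. The stem and progenitor sum (10 genes, among them Cd34, Kit, Mpo and Elane) was 11335 to 14198 in untreated, 107 to 1535 in TBI, 628 to 856 in IgG RIT, and 79.9 and 111 in CD45 RIT. Mpo made up most of it in untreated, with 203739 to 315712 counts, against 5997 to 11309 for Cd34 and 2981 to 5806 for Kit. In CD45 RIT Cd34 was at 0 counts, Kit at 0 and 753, and Cebpa at 1534 and 2218. The stromal sum (15 genes such as Lepr and Cxcl12) was 3367 to 8681 in untreated, 1007 to 2359 in TBI, 397 to 1221 in IgG RIT, and 39297 and 60064 in CD45 RIT. The leukocyte sum was 1415 to 2247 in untreated, 867 to 1528 in TBI replicates 1, 3, 4 and 5, 142 in TBI replicate 6, 156 to 350 in IgG RIT, and 183 and 87.9 in CD45 RIT. Against untreated (edgeR, adjusted p under 0.05), 0.921% of all tested genes rose and 3.38% fell in TBI, 5.75% rose and 10.7% fell in IgG RIT, and 14.5% rose and 18.6% fell in CD45 RIT. Of the 19 erythroid markers, 4 rose in TBI, 11 in IgG RIT and 6 in CD45 RIT, and none fell. Of the 10 stem and progenitor markers, 8 fell in each treatment, and 1 (Cebpa) rose in CD45 RIT. Of the 15 stromal markers, 8 fell in TBI, 5 fell in IgG RIT and 14 rose in CD45 RIT. Endothelial markers, of which 16 were tested, had no call in TBI and 2 falls in IgG RIT. In CD45 RIT 4 of them rose and 3 fell, and Kdr had 1 and 2390 counts in replicates 1 and 2. Among the 10 leukocyte markers, 2 fell in TBI, 1 in IgG RIT and 6 in CD45 RIT, and none rose. The groups thus differed in these markers as well as in the members described below. The part of the marker shifts in those results was not tested. In bulk libraries of this kind, fewer dividing cells and less of these transcripts per cell cannot be told apart.

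Values of single genes are counts scaled to library size with TMM factors (CPM), which corrects for a few very abundant genes taking up a library. Summed levels are CPM of the total counts without that scaling. Log2 fold changes are given ± SE, taken here as the absolute log2 fold change over the square root of edgeR's F statistic. Its spread is estimated over all groups in the fit. A gene is called when edgeR's quasi-likelihood test, fitted on all 14 libraries and Benjamini-Hochberg adjusted over the 21509 genes, gave an adjusted p under 0.05. Comparisons against untreated share the same 4 untreated libraries.

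Summed over the 49 members, the level was 7590 to 10258 CPM in the 4 untreated libraries, 13012 to 16797 in TBI, 18934 to 19492 in IgG RIT, and 4619 and 1894 in CD45 RIT. On this scale of total counts the 4 groups did not overlap, with IgG RIT highest, then TBI, untreated and CD45 RIT. On the TMM scale the sums were 6263 to 8482 in untreated, 10970.1 to 19783 in TBI, 21607 to 24081 in IgG RIT, and 6560 and 2440 in CD45 RIT, so that CD45 RIT replicate 1 lay within the untreated range. The members' share of all counts was between 0.759% and 1.03% in untreated and between 1.89% and 1.95% in IgG RIT.

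**Figure D1:**
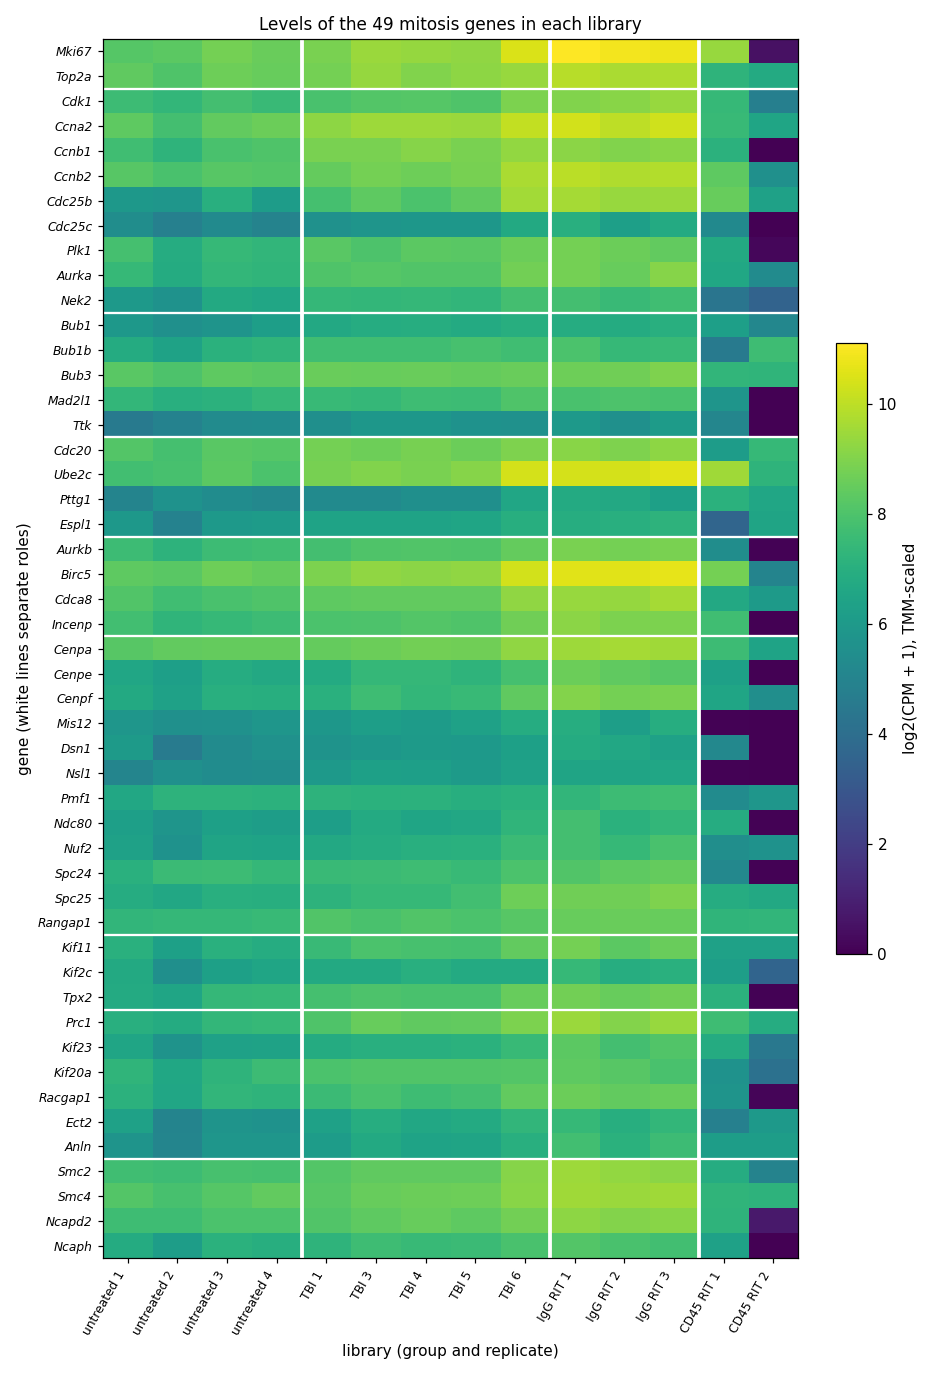
Level of each of the 49 genes (rows, grouped by role with white lines between roles) in each of the 14 libraries (columns, grouped by treatment), as log2(CPM + 1) after TMM scaling. IgG RIT and TBI replicate 6 are the brightest columns for many genes, and CD45 RIT replicate 2 has 10 genes at 0 counts.

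In TBI all 49 members had a positive log2 fold change against untreated (48 with no scaling factors and 48 without untreated replicate 1, where Pmf1 turned, and 47 with a replicate block), with a median of 0.82, while the median over all tested genes was -0.16. Of the 49, 10 rose and none fell: Top2a, Ccna2, Cdc25b, Aurka, Nek2, Bub1, Rangap1, Kif11, Prc1 and Anln. That is 20.4% of the members, against 0.921% of all tested genes called higher and 3.38% called lower. In 40 members every TBI library was above every untreated library, against 6.34% of all genes. With the 2 CD45 RIT libraries left out of the fit, a setting chosen after seeing the data, 42 members rose, where 8.04% of all genes did. The 7 that did not were Cenpa, Dsn1, Kif2c, Ndc80, Pmf1, Pttg1 and Spc24. Leaving out TBI replicate 6 as well, so that both groups have library numbers under 10, also gave 42, against 8.08% of genes. In the fit of all groups the count was 3 without untreated replicate 2 (0.237% of all genes) and 4 without untreated replicate 1 (0.325%). It was 6 without untreated replicate 4 (0.515%) and also 6 without TBI replicate 3, 4 or 5 (0.511%, 0.458% and 0.407%). DESeq2 called 22 members higher, against 4.55% of genes, and fitting only these 2 groups gave 40, against 7.41%.

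In IgG RIT all 49 members were above untreated in every library, which held for 15.6% of all genes. The median log2 fold change was 1.35, against -0.42 over all tested genes. Of the 49, 28 rose, 57.1%, and none fell, against 5.75% of all genes called higher and 10.7% called lower. The 10 that rose in TBI were all among them. All 49 rose when the CD45 RIT libraries were left out (16.8% of genes) and when only the IgG RIT and untreated libraries were fitted (18.4% of genes). DESeq2 called 32 higher, against 11.5% of genes. With no scaling factors 19 rose, against 3.42% of genes, and the median over all genes then shifted to -0.94.

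In CD45 RIT 44 of the 49 members had a negative log2 fold change and 5 a positive one (Cdc25b, Ube2c, Pttg1, Prc1 and Anln). The positive ones were 12 with RLE factors or DESeq2 and 3 with no scaling factors. Of the 49, 14 fell, 28.6%, and 1 rose (Pttg1), against 18.6% of all genes called lower and 14.5% called higher. The median was -0.95, against -0.37 over all genes. The groups did not overlap in 23 members that were lower, against 29.8% of all genes, and 2 that were higher (Pttg1 and Anln), against 17.5%. The 14 were Top2a, Ccna2, Aurka, Nek2, Bub3, Cdc20, Cdca8, Cenpa, Mis12, Nsl1, Pmf1, Kif20a, Smc2 and Smc4, of which 12 rose in IgG RIT. Without CD45 RIT replicate 1 the fit gave 37 lower and 2 higher, against 30.9% and 17.1% of all genes. Without replicate 2 it gave 15 lower and 3 higher, against 17.6% and 12.8%. The lone library is assumed in those fits to vary like the other groups. With no scaling factors 24 fell, against 28.4% of all genes, and the median over all genes was then -1.08.

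**Figure D2:**
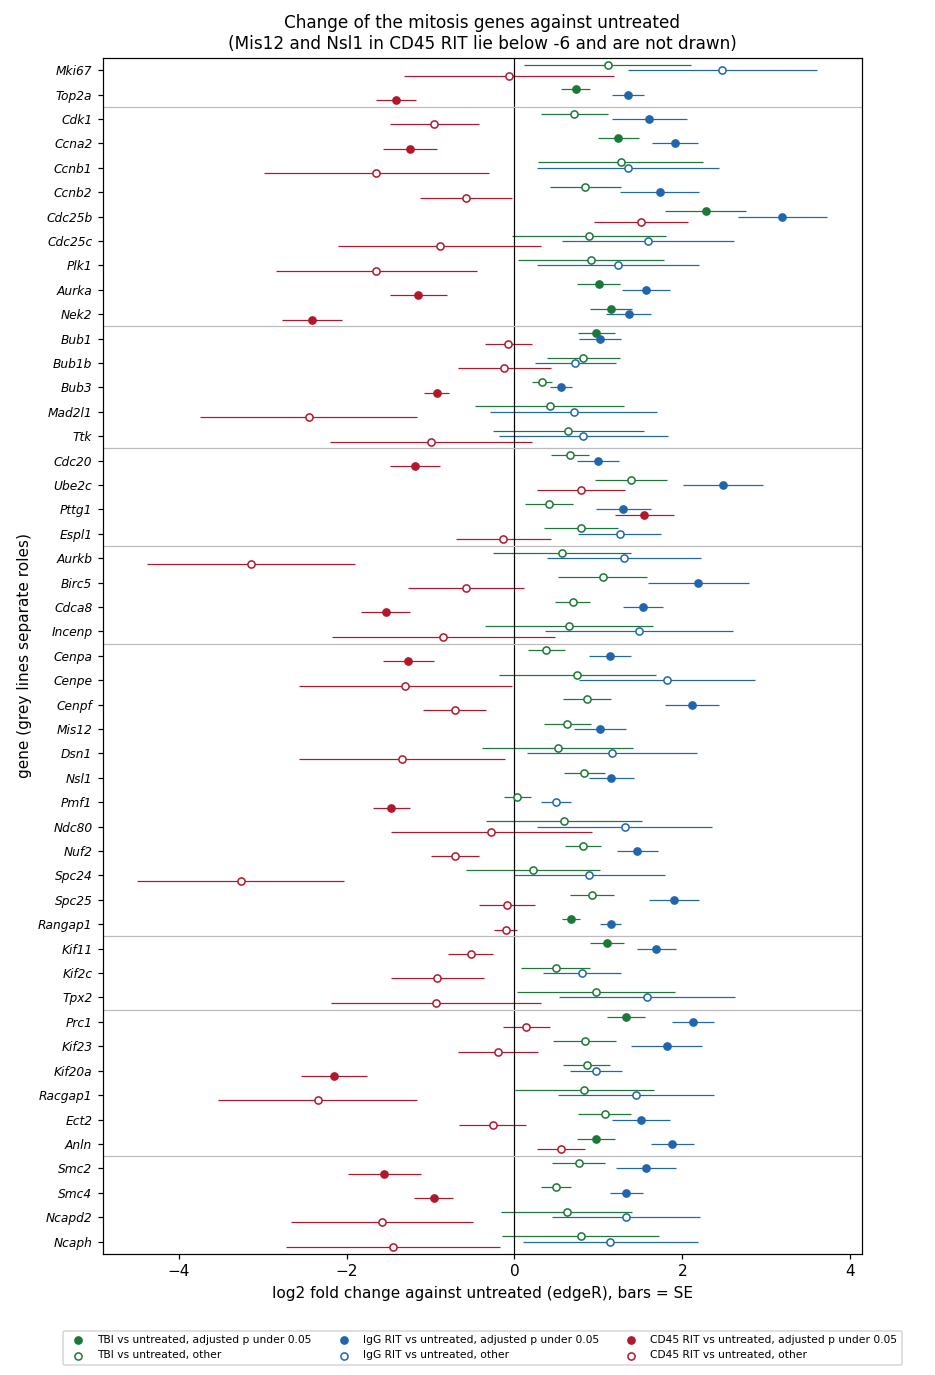
Log2 fold change of each gene against untreated in TBI (green), IgG RIT (blue) and CD45 RIT (red), with the standard error as a bar and filled points for adjusted p under 0.05. All 49 green and all 49 blue points lie right of 0, and most red points lie left of it, with those of Mis12 and Nsl1 beyond the axis.

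Against IgG RIT, CD45 RIT was lower in 32 members and higher in none (17.5% of all genes called lower, 20.2% called higher), and in 47 members no CD45 RIT library reached the lowest IgG RIT library, against 29.6% of genes. The exceptions were Pttg1 and Bub1b. Fitting only these 2 groups gave 19 lower, against 5.83% of genes. Against TBI, 25 members were lower and 1 (Pttg1) was higher, against 19.0% and 19.6% of all genes. Without CD45 RIT replicate 1, 43 were lower, against 30.8% of all genes, and Pttg1 was no longer called.

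Against TBI, IgG RIT had 48 members with a positive log2 fold change and a median of 0.65 (-0.16 over all genes), but none was called with edgeR, where 0.0697% of genes were called higher and 0.172% lower. At an unadjusted p under 0.05 there were 17, a count for which no share of all genes is given here. DESeq2 called 10, against 3.58% of genes. All 3 IgG RIT libraries were above all 5 TBI libraries in 27 members, against 8.37% of genes, and below them in none, against 8.44%. Fitting only these 2 groups gave 5 (1.76% of genes), leaving out TBI replicate 6 gave 14 (3.76% of genes), without the CD45 RIT group 21 (5.10% of genes), and without both 39 (13.7% of genes). With no scaling factors none was called (0.107% of genes were called higher), and 36 members were positive. The sign turned there for 12: Ccnb1, Plk1, Nek2, Bub1, Bub3, Mad2l1, Ttk, Cdc20, Nsl1, Kif2c, Kif20a and Ncaph.

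Mki67, the nuclear antigen Ki-67 that coats mitotic chromosomes (ENSMUSG00000031004.8, chr7:135689784-135716361, - strand), had 285, 313, 447 and 375 CPM in untreated and 465, 689.7, 659, 617 and 1405 in TBI replicates 1, 3, 4, 5 and 6. IgG RIT had 2205, 1921 and 1800.1, and CD45 RIT had 678 and 0.433. IgG RIT was above every other library, TBI replicate 6 was above the other TBI libraries, and the CD45 RIT libraries lay on opposite sides of the untreated range with 11121 and 9 counts. The log2 fold change was 2.48 ± 1.12 by edgeR (adjusted p = 0.145) in IgG RIT and 1.11 ± 0.99 by edgeR (adjusted p = 0.649) in TBI, neither of which was called. Without the CD45 RIT group the values were 2.67 ± 0.35 by edgeR (adjusted p = 0.000397) and 1.27 ± 0.31 by edgeR (adjusted p = 0.0183).

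Top2a, the topoisomerase that untangles sister chromatids (ENSMUSG00000020914.17, chr11:98992943-99024189, - strand), had 338, 266, 406 and 366 CPM in untreated, 440.3, 648, 509, 588 and 671 in TBI, 959, 828 and 843 in IgG RIT and 149 and 109.8 in CD45 RIT. No 2 groups overlapped. The log2 fold change against untreated was 0.73 ± 0.17 by edgeR (adjusted p = 0.0333) in TBI, 1.35 ± 0.19 by edgeR (adjusted p = 0.00203) in IgG RIT and -1.41 ± 0.24 by edgeR (adjusted p = 0.000852) in CD45 RIT. The TBI call was lost without scaling factors and on leaving out untreated replicate 1, 2 or 4 or TBI replicate 3, 4, 5 or 6. The ratio of Mki67 to Top2a counts was 0.845 to 1.18 in untreated, 1.05 to 1.29 in TBI replicates 1, 3, 4 and 5, 2.09 in TBI replicate 6, 2.14 to 2.32 in IgG RIT, and 4.57 and 0.00394 in CD45 RIT. TBI replicate 6 was thus nearer to IgG RIT than to its own group in this ratio.

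Of the 9 mitotic kinases, cyclins and phosphatases, 4 rose in TBI (Ccna2, Cdc25b, Aurka and Nek2), 6 rose in IgG RIT (these 4 with Cdk1 and Ccnb2), and 3 fell in CD45 RIT (Ccna2, Aurka and Nek2). All 9 were above untreated in every TBI and every IgG RIT library. Cdc25b, a phosphatase that activates cyclin-dependent kinases (ENSMUSG00000027330.16, chr2:131186949-131198497, + strand), had the largest rise of all members in both groups. It had 59.5, 56.2, 129 and 69.9 CPM in untreated, 229.9, 329, 245, 336 and 766 in TBI, 786, 674 and 692 in IgG RIT and 365 and 80.9 in CD45 RIT. The mean ratio to untreated was 4.85 in TBI and 9.13 in IgG RIT, with log2 fold changes of 2.28 ± 0.48 by edgeR (adjusted p = 0.021) and 3.19 ± 0.53 by edgeR (adjusted p = 0.00356). In CD45 RIT replicate 1 was above the untreated range and replicate 2 within it, and the difference was not called (adjusted p = 0.056). The TBI call was lost without untreated replicate 1, 2 or 4.

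Ccna2, cyclin A2 (ENSMUSG00000027715.9, chr3:36564865-36572150, - strand), had 322, 219, 347 and 391 CPM in untreated, 594, 703, 705, 696 and 1074 in TBI, 1305, 1034 and 1269.5 in IgG RIT and 179 and 91.0 in CD45 RIT. TBI and IgG RIT lay above and CD45 RIT below untreated with no overlap, and TBI replicate 6 passed the lowest IgG RIT library. Against untreated, Ccna2 stood at 1.24 ± 0.24 by edgeR (adjusted p = 0.0148) in TBI, 1.91 ± 0.27 by edgeR (adjusted p = 0.00204) in IgG RIT and -1.24 ± 0.33 by edgeR (adjusted p = 0.0122) in CD45 RIT. The TBI call was lost without untreated replicate 2 and the CD45 RIT call without CD45 RIT replicate 2. Exosc9 overlaps Ccna2 by 863 bases on the other strand, and whether the counting used strand is not given in the sources used here.

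Nek2, a centrosome kinase (ENSMUSG00000026622.15, chr1:191821444-191833050, + strand), had 62.9, 49.7, 108 and 95.3 CPM in untreated, 168, 161, 167, 157 and 221 in TBI, 218, 183 and 206 in IgG RIT and 19.0 and 10.7 in CD45 RIT. It had the deepest fall in CD45 RIT among members with over 3 counts in both libraries, with a log2 fold change of -2.41 ± 0.35 by edgeR (adjusted p = 0.000383). In TBI it was 1.15 ± 0.25 by edgeR (adjusted p = 0.0224), a call lost without untreated replicate 1 or 2. IgG RIT and TBI overlapped.

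Cdk1, the kinase that drives entry into mitosis (ENSMUSG00000019942.13, chr10:69335146-69352938, - strand), had 195, 162, 219.6 and 185 CPM in untreated, 244, 284, 286, 267 and 484 in TBI, 512, 561 and 666 in IgG RIT and 170.4 and 26.7 in CD45 RIT. It rose in IgG RIT (log2 fold change 1.60 ± 0.44, edgeR adjusted p = 0.0292), although leaving out any 1 untreated or IgG RIT library ended the call. CD45 RIT replicate 1 lay within the untreated range and replicate 2 far below it. Its partner cyclin Ccnb1 had 209, 149, 242 and 261 CPM in untreated, 461, 465, 550.3, 472 and 636 in TBI, 569, 509 and 566 in IgG RIT and 138 and 0 in CD45 RIT. TBI and IgG RIT overlapped there, and replicate 2 of CD45 RIT held no count out of 26823379. Plk1, the polo kinase of centrosome maturation, had 226, 117, 171 and 158 CPM in untreated, 308, 259, 315, 309 and 385 in TBI, 447, 387 and 351 in IgG RIT and 107 and 0.144 in CD45 RIT. Neither was called in any comparison of the all-group fit. Without the CD45 RIT group Ccnb1 was 1.40 ± 0.19 by edgeR (adjusted p = 0.00117) in TBI and 1.54 ± 0.20 by edgeR (adjusted p = 0.000396) in IgG RIT, and Plk1 was 1.04 ± 0.21 by edgeR (adjusted p = 0.00727) and 1.42 ± 0.23 by edgeR (adjusted p = 0.000797). The remaining members of the role had IgG RIT log2 fold changes of 1.73 ± 0.47 (Ccnb2, cyclin B2), 1.57 ± 0.29 (Aurka, the spindle pole Aurora kinase) and 1.59 ± 1.02 (Cdc25c, not called).

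**Figure D3:**
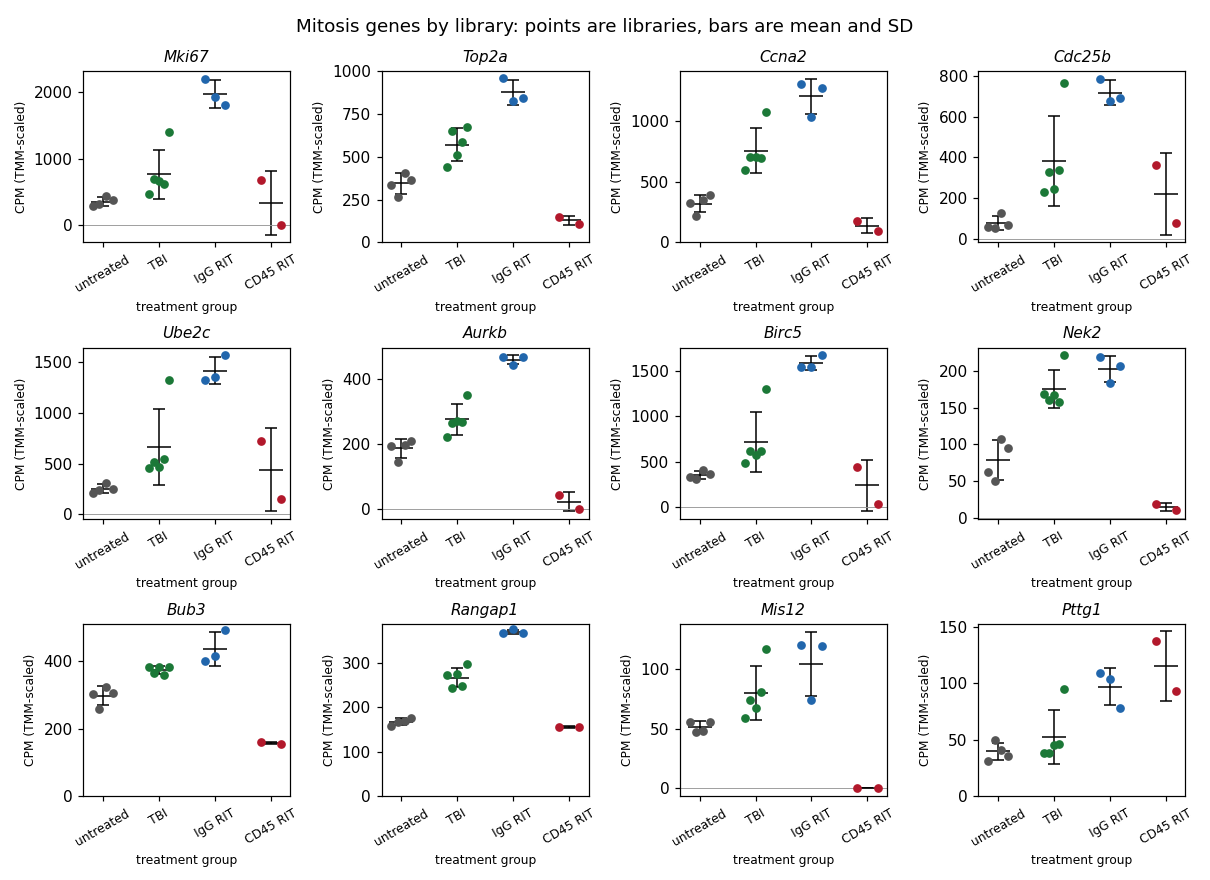
CPM of 12 of the genes in each library (points), with the group mean and SD as bars, by treatment group. IgG RIT is above untreated in each panel, TBI replicate 6 is the isolated high TBI point for Cdc25b, Ube2c and Birc5, and Mis12 sits at or near 0 in CD45 RIT.

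The 5 spindle checkpoint members had the lowest median log2 fold change of the 9 roles in both TBI and IgG RIT, 0.64 and 0.73. Their summed level was 662 to 852 CPM in untreated, 874 to 1120 in TBI, 850 to 920 in IgG RIT, and 244 and 301 in CD45 RIT, so IgG RIT overlapped untreated on that scale. Bub1, a checkpoint kinase, rose in both, by 0.98 ± 0.22 and 1.02 ± 0.25 on the log2 scale. Bub3 rose in IgG RIT and was not called in TBI, and its difference between the 2 treatments was not called either (log2 fold change 0.22 ± 0.12, edgeR adjusted p = 0.362). Bub3, the scaffold that brings Bub1 to kinetochores (ENSMUSG00000066979.6, chr7:131560222-131571895, + strand), had 303, 259, 323 and 308 CPM in untreated, 384, 365, 384, 359 and 384 in TBI, 401, 416 and 493 in IgG RIT and 159 and 154 in CD45 RIT. The 5 TBI values spanned a narrow range, TBI replicate 6 included, and both CD45 RIT libraries lay well below untreated (log2 fold change -0.93 ± 0.15, edgeR adjusted p = 0.000843). The IgG RIT call (log2 fold change 0.55 ± 0.13, edgeR adjusted p = 0.0145) was lost without scaling factors and without IgG RIT replicate 3. Fgfr2 overlaps Bub3 by 11674 bases on the other strand, so its counts are uncertain in part. Bub1b, Mad2l1 and Ttk were called in no comparison. Mad2l1 and Ttk were at 0 counts in CD45 RIT replicate 2 and at 901 and 547 in replicate 1, whereas Bub1b went the other way, with 365 counts in replicate 1 and 4142 in replicate 2.

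At anaphase onset, none of the 4 members was called in TBI and 3 rose in IgG RIT: Ube2c, Cdc20 and Pttg1. Ube2c, the ubiquitin-conjugating enzyme of the anaphase-promoting complex (ENSMUSG00000001403.13, chr2:164769898-164778822, + strand), had 214 to 314 CPM in the 4 untreated libraries, 455, 518, 469, 543 and 1326 in TBI, 1329, 1351 and 1568 in IgG RIT and 727 and 149.7 in CD45 RIT. IgG RIT was 5.59 times untreated in the mean (log2 fold change 2.48 ± 0.48, edgeR adjusted p = 0.00631). TBI replicate 6 lay just under the lowest IgG RIT library, while the other TBI libraries were between 455 and 543. The TBI difference was not called (log2 fold change 1.39 ± 0.43, edgeR adjusted p = 0.0943), and the CD45 RIT libraries lay on opposite sides of untreated.

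Pttg1, securin, the inhibitor of separase (ENSMUSG00000020415.16, chr11:43420250-43426251, - strand), was the 1 member that rose in CD45 RIT. It had 31.3, 49.9, 41.1 and 35.8 CPM in untreated, 38.6, 38.4, 45.5, 45.9 and 94.6 in TBI, 109, 104 and 78.5 in IgG RIT and 137 and 93.7 in CD45 RIT. TBI replicates 1, 3, 4 and 5 lay within the untreated range, and the highest values were in TBI replicate 6, IgG RIT and CD45 RIT. The log2 fold change was 1.30 ± 0.32 by edgeR (adjusted p = 0.0192) in IgG RIT and 1.55 ± 0.36 by edgeR (adjusted p = 0.00614) in CD45 RIT, and the IgG RIT call was lost without scaling factors and without untreated replicate 1 or 4 or IgG RIT replicate 1 or 2. Cdc20, the activator that the checkpoint restrains, was 1.00 ± 0.25 in IgG RIT and -1.19 ± 0.30 in CD45 RIT on the log2 scale, both called, and Elovl1 overlaps it by 53 bases on the other strand. Espl1, separase, was not called, and had 184 and 1839 counts in the 2 CD45 RIT libraries.

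Among the 4 genes of the chromosomal passenger complex, which corrects faulty kinetochore attachments, Birc5 and Cdca8 rose in IgG RIT, Cdca8 fell in CD45 RIT, and none was called in TBI. All 4 were above TBI in every IgG RIT library. Birc5, survivin (ENSMUSG00000017716.15, chr11:117849251-117855743, + strand), had 323, 308, 406 and 356 CPM in untreated, 483, 622, 569.9, 621 and 1307 in TBI, 1546, 1550.3 and 1678 in IgG RIT and 437 and 31.0 in CD45 RIT. The rise in IgG RIT was 4.57 times in the mean (log2 fold change 2.19 ± 0.60, edgeR adjusted p = 0.028), a call that leaving out any 1 of the untreated or IgG RIT libraries ended. Without the CD45 RIT group it was 2.39 ± 0.33 by edgeR (adjusted p = 0.000437). Aurkb, the kinase of the complex (ENSMUSG00000020897.12, chr11:69045647-69051664, + strand), had 193, 144, 196 and 208 CPM in untreated, 221, 264, 270.0, 265 and 351 in TBI, 467, 443 and 466 in IgG RIT and 42.3 and 0.0481 in CD45 RIT. Both CD45 RIT libraries were far below all others, with 693 counts and 1 count. The fall was called against IgG RIT (log2 fold change -4.44 ± 1.36, edgeR adjusted p = 0.0225) and TBI (log2 fold change -3.70 ± 1.27, edgeR adjusted p = 0.036), not against untreated (log2 fold change -3.13 ± 1.24, edgeR adjusted p = 0.0691). The call against IgG RIT was lost when only the 2 groups were fitted, and that against TBI also on leaving out any 1 TBI library. Cdca8, borealin, was 1.53 ± 0.24 by edgeR (adjusted p = 0.00272) in IgG RIT and -1.53 ± 0.29 by edgeR (adjusted p = 0.00197) in CD45 RIT. Incenp was not called and had 3371 counts in CD45 RIT replicate 1 and 0 in replicate 2.

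Of the 12 centromere and kinetochore members, Rangap1 alone rose in TBI, and 6 overlapped untreated there. In IgG RIT 7 rose (Cenpa, Cenpf, Mis12, Nsl1, Nuf2, Spc25 and Rangap1), and in CD45 RIT 4 fell (Cenpa, Mis12, Nsl1 and Pmf1). Cenpa, the histone H3 variant that marks centromeres (ENSMUSG00000029177.9, chr5:30666777-30674830, + strand), had 296, 344, 353 and 358 CPM in untreated, 358, 392, 427, 413 and 608 in TBI, 719, 784 and 724 in IgG RIT and 195 and 86.2 in CD45 RIT. TBI replicate 1 lay just under the highest untreated library, and replicate 6 was the highest TBI value. In log2 units Cenpa was at 1.14 ± 0.25 by edgeR (adjusted p = 0.0104) in IgG RIT and -1.26 ± 0.30 by edgeR (adjusted p = 0.00734) in CD45 RIT, and the CD45 RIT call was lost without its replicate 2.

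Mis12 and Nsl1 belong to the MIS12 complex, which with Dsn1 and Pmf1 links the centromere to the microtubule-binding NDC80 complex. Mis12 (ENSMUSG00000040599.13, chr11:71019611-71027371, + strand) had 55.5, 47.3, 47.7 and 55.7 CPM in untreated, 58.7, 74.2, 67.4, 80.9 and 117 in TBI, 120.1, 73.7 and 119.6 in IgG RIT and 0.0610 and 0 in CD45 RIT. Nsl1 (ENSMUSG00000062510.12, chr1:191063012-191086474, + strand) had 31.8, 47.0, 41.0 and 43.0 CPM in untreated, 62.4, 77.8, 75.6, 64.5 and 81.7 in TBI, 89.5, 88.9 and 93.3 in IgG RIT and 0.0610 and 0 in CD45 RIT. Replicate 1 of CD45 RIT held a single count of each and replicate 2 none, against 1138 to 2387 in every other library, so these were the only 2 members near 0 in both CD45 RIT libraries. From the pooled single count, untreated was 1917 times CD45 RIT for Mis12 (95% Poisson interval 344 to 75730) and 1513 times for Nsl1 (272 to 59759), intervals that cover counting error only. Both falls were called (edgeR adjusted p = 2.32e-06 and 1.26e-06). The IgG RIT rise of Mis12 (log2 fold change 1.02 ± 0.31, edgeR adjusted p = 0.0437) was lost without scaling factors and on leaving out any library of the 2 groups except IgG RIT replicate 2, and that of Nsl1 (log2 fold change 1.15 ± 0.27, edgeR adjusted p = 0.0137) without scaling factors. Derl2 overlaps Mis12 by 231 bases on the other strand.

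Their partner Pmf1 was not near 0. It had 99.5, 145, 146 and 140.4 CPM in untreated, 142, 135, 142, 126 and 135 in TBI, 159, 196 and 207 in IgG RIT and 40.4 and 55.5 in CD45 RIT (ENSMUSG00000028066.15, chr3:88394143-88410331, - strand). TBI lay within the untreated range (log2 fold change 0.035 ± 0.16, edgeR adjusted p = 0.957), in which replicate 1 was the low value, and CD45 RIT lay below it (log2 fold change -1.47 ± 0.22, edgeR adjusted p = 0.000423) with 662 and 1153 counts. The IgG RIT difference was not called (log2 fold change 0.50 ± 0.18, edgeR adjusted p = 0.0775), and its sign turned with no scaling factors (-0.019), as did the TBI one (-0.095). Dsn1, the fourth subunit, was not called and had 573 and 0 counts in the 2 CD45 RIT libraries. In the NDC80 complex Nuf2 and Spc25 rose in IgG RIT, by 1.46 ± 0.24 and 1.90 ± 0.30 on the log2 scale, while Ndc80 (1.31 ± 1.04) and Spc24 (0.89 ± 0.90) did not pass. Ndc80 and Spc24 each had 1 count in CD45 RIT replicate 2, whereas Nuf2 had 729 and 1022 and Spc25 had 1936 and 2138 counts in replicates 1 and 2. Cenpf, a large kinetochore protein, was 2.11 ± 0.32 by edgeR (adjusted p = 0.00263) in IgG RIT, and the kinesin Cenpe was not called (log2 fold change 1.81 ± 1.05, edgeR adjusted p = 0.249).

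Rangap1, the activator of the Ran GTPase that also sits at kinetochores (ENSMUSG00000022391.16, chr15:81704248-81745530, - strand), had 158, 167, 168 and 176 CPM in untreated, 273, 244, 275, 248 and 297 in TBI, 368, 376 and 367 in IgG RIT and 155 and 157 in CD45 RIT. Untreated, TBI and IgG RIT were fully separate, and CD45 RIT lay just below untreated. The log2 fold change was 0.67 ± 0.11 by edgeR (adjusted p = 0.00531) in TBI and 1.14 ± 0.12 by edgeR (adjusted p = 0.000977) in IgG RIT, the IgG RIT against TBI difference was not called (log2 fold change 0.47 ± 0.12, edgeR adjusted p = 0.0857), and CD45 RIT was not called (log2 fold change -0.11 ± 0.14, edgeR adjusted p = 0.575).

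Of the 3 spindle motors and assembly factors, Kif11, the kinesin that pushes spindle poles apart, rose in TBI (log2 fold change 1.10 ± 0.21, edgeR adjusted p = 0.0114) and in IgG RIT (log2 fold change 1.69 ± 0.23, edgeR adjusted p = 0.00184). Its 2 CD45 RIT libraries held 79.9 and 80.9 CPM, at the low edge of untreated (79.2 to 133). Processed pseudogenes overlap its gene model. Kif2c, a microtubule-depolymerising kinesin, and Tpx2, the activator of Aurka, were not called against untreated. Kif2c was one of 4 members in which TBI replicate 6 was not above the other TBI libraries, with 108, 108, 128, 108 and 111 CPM.

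All 6 central spindle and cytokinesis members were above untreated in every TBI and IgG RIT library. Prc1 and Anln rose in TBI, these 2 with Kif23 and Ect2 rose in IgG RIT, and Kif20a fell in CD45 RIT (log2 fold change -2.15 ± 0.40, edgeR adjusted p = 0.00166). Prc1, which bundles antiparallel microtubules (ENSMUSG00000038943.16, chr7:80294450-80316259, + strand), had 128, 112, 164 and 173 CPM in untreated, 262, 371, 338, 349 and 487 in TBI, 695, 525 and 666 in IgG RIT and 203 and 115 in CD45 RIT. IgG RIT, TBI and untreated were fully separate, and the CD45 RIT libraries lay above and within the untreated range. In log2 units Prc1 was at 1.33 ± 0.23 by edgeR (adjusted p = 0.00706) in TBI and 2.13 ± 0.25 by edgeR (adjusted p = 0.00149) in IgG RIT. Rccd1 overlaps the whole of Prc1 on the other strand and Cdc23 overlaps Kif20a by 2327 bases, so both genes' counts are uncertain in part. Anln, anillin, which scaffolds the contractile ring, had 71.5 and 72.7 CPM in CD45 RIT, both above the untreated range of 32.1 to 56.0, but the difference was not called (log2 fold change 0.56 ± 0.28, edgeR adjusted p = 0.143) and turned sign with no scaling factors. All 6 members were lower in CD45 RIT than in IgG RIT, with a median log2 difference of -1.99. Racgap1 had 867 and 2 counts in CD45 RIT.

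In condensin, which compacts mitotic chromosomes, the 2 core ATPases Smc2 and Smc4 rose in IgG RIT (1.57 ± 0.35 and 1.33 ± 0.20 on the log2 scale) and fell in CD45 RIT (-1.55 ± 0.43 and -0.96 ± 0.23). The regulatory subunits Ncapd2 and Ncaph were called in no comparison, with 14 and 0 counts in CD45 RIT replicate 2 and 2456 and 1329 in replicate 1. No condensin member was called in TBI.

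The 2 CD45 RIT libraries differed in which members they held. Replicate 1 had 26 members below the untreated range, 12 within it and 11 above, with a median ratio to the untreated mean of 0.667. Replicate 2 had 40 below, 5 within and 4 above, with a median ratio of 0.168. In replicate 2, 10 members were at 0 and 16 at 3 counts or fewer (20.4% and 32.7% of the members), shares below those of all tested genes in that library (29.6% and 39.7%). A count of 0 there allows up to 0.112 CPM. Of the 16, 14 had 547 to 3371 counts in replicate 1, and the other two were Mis12 and Nsl1. The other 33 members had 9 to 4142 counts in replicate 2. Bub1b, Espl1, Cdc20 and Ect2 were instead more than 2 times higher in replicate 2. Only 10 of the 49 agreed within 1.5 times, among them Bub3, Rangap1, Kif11, Anln, Smc4 and Nuf2. The share of all tested genes that lay outside the untreated range or agreed within 1.5 times is not given here. Over all tested genes the 2 libraries correlated at only 0.67, so these counts cannot be read as particular to the members. The erythroid sum was 199113 in replicate 1 and 48174 in replicate 2, and the stromal sum 39297 and 60064. Their part in these differences was not tested.

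**Figure D4:**
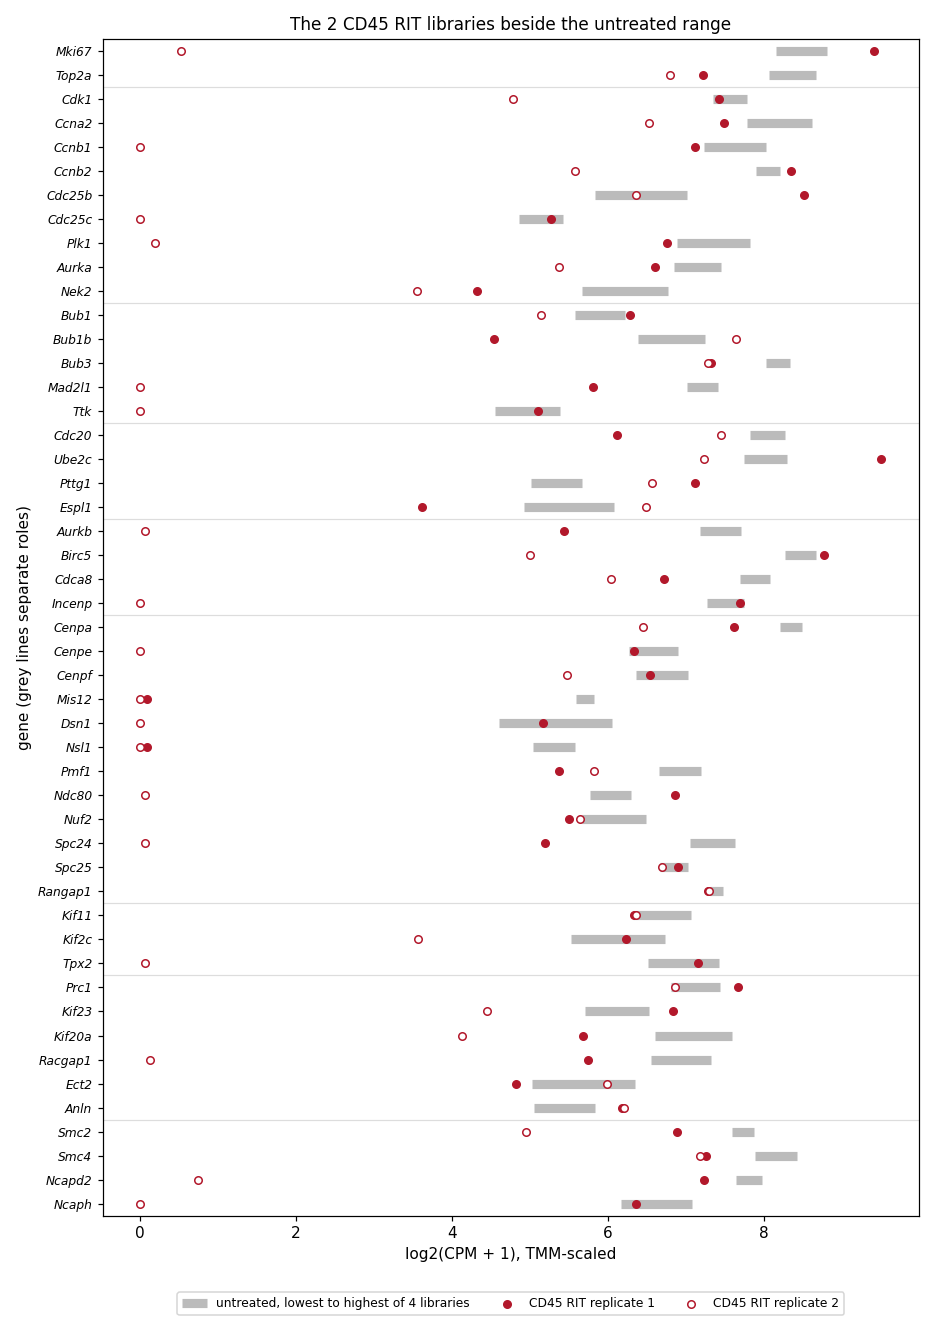
Level of each gene in CD45 RIT replicate 1 (filled) and replicate 2 (open) as log2(CPM + 1), with the range of the 4 untreated libraries as a grey bar. Replicate 2 has 16 genes at 3 counts or fewer, of which 14 have at least 547 counts in replicate 1.

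Of the 49 members, 15 were called in none of the 6 comparisons: Mki67, Ccnb1, Cdc25c, Plk1, Bub1b, Mad2l1, Ttk, Espl1, Incenp, Cenpe, Dsn1, Ndc80, Tpx2, Ncapd2 and Ncaph. Of these, 11 had at most 3 counts in CD45 RIT replicate 2. Without the CD45 RIT group all 15 rose in IgG RIT and 13 in TBI.

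TBI replicate 6 was above the other 4 TBI libraries in 45 of the 49 members, with a median ratio to their mean of 1.51. It was at least 1.5 times their mean in 25 members and at least 2 times in 7: Cdc25b (2.69), Ube2c (2.67), Mki67 (2.31), Spc25 (2.28), Birc5 (2.28), Pttg1 (2.25) and Ccnb2 (2.02). It stayed near their mean for Kif20a (1.06), Bub3 (1.03), Pmf1 (0.990), Kif2c (0.984), Bub1b (0.972) and Ttk (0.901). In 21 members it reached or passed the lowest IgG RIT library. It also had the highest erythroid sum of the TBI libraries, 194767 against 34750 to 56652, and the lowest stem and progenitor sum, 107 against 693 to 1535. The part of these in its levels was not tested. The same counts over all tested genes are not given here, so those above cannot be read as particular to the members.

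**Figure D5:**
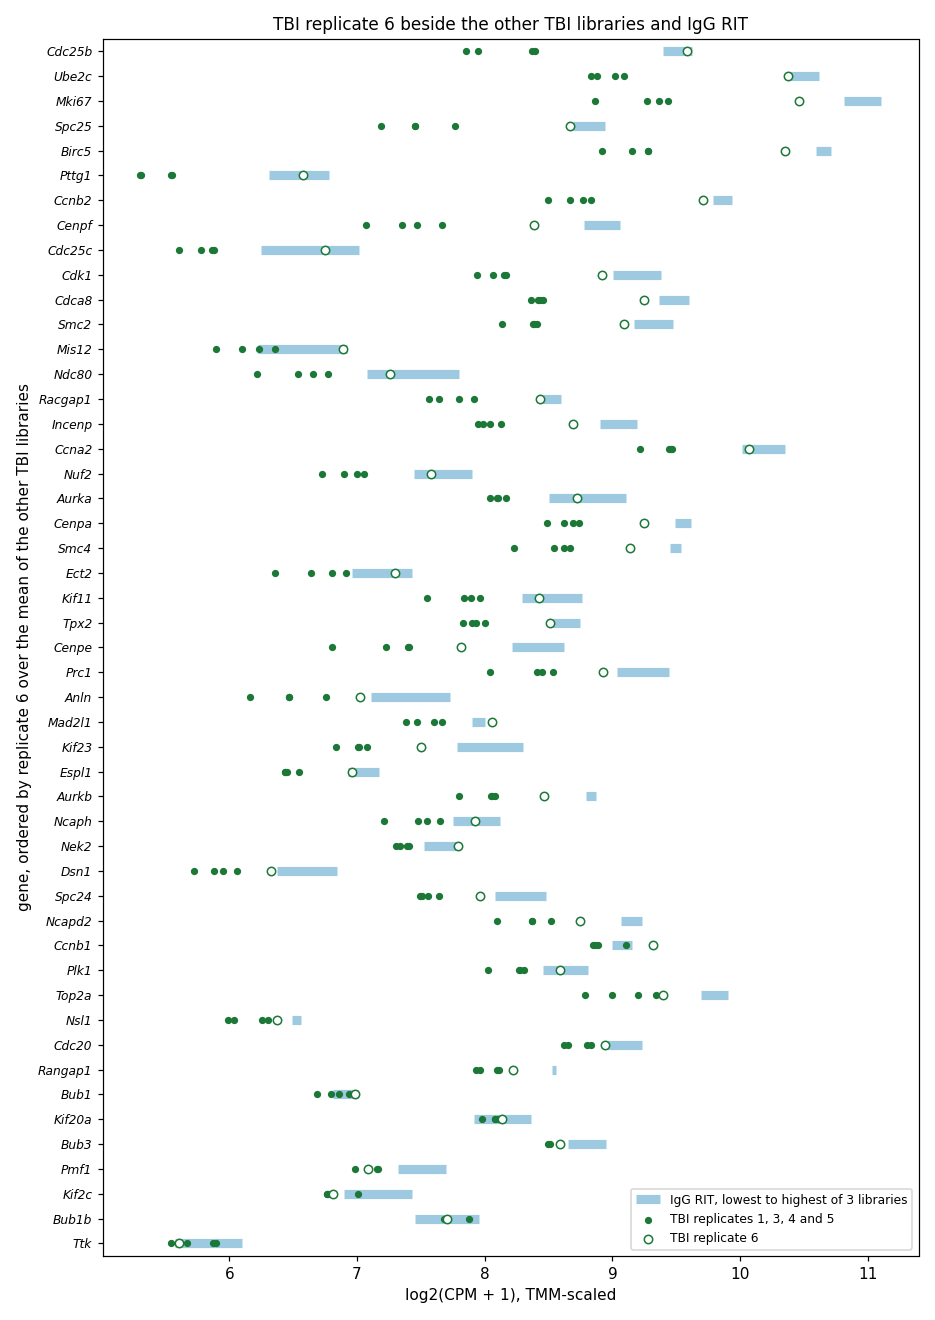
Level of each gene as log2(CPM + 1) in TBI replicates 1, 3, 4 and 5 (filled green) and TBI replicate 6 (open), with the IgG RIT range of 3 libraries as a blue bar, ordered by the ratio of replicate 6 to the mean of the others. Replicate 6 lies above the other TBI libraries in 45 of 49 genes and reaches the IgG RIT range in 21. The share of all tested genes that do so is not given.

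Levels per kilobase of gene model, the scale on which genes can be compared, put Ccnb2 first in untreated at 181 ± 17.3 CPM per kb (SD, n = 4), then Cdc20 at 148 ± 19.1, Birc5 at 102 ± 12.7 and Ube2c at 97.5 ± 16.5. Cdc20 and Ccnb2 differed by less than the sum of their SDs, as did Birc5 and Ube2c. Lowest were Ttk at 6.76 ± 1.77, Espl1 at 6.26 ± 1.95 and Anln at 5.41 ± 1.25, which overlapped within their spread. In IgG RIT the order at the top was Ccnb2 at 601 ± 34.1, Ube2c at 545 ± 50.7 and Birc5 at 468 ± 22.1 (SD, n = 3). Mki67 ranked 21 of 49 in untreated at 35.3 ± 7.12 and 6 of 49 in IgG RIT at 196 ± 20.6. Cdc25b ranked 28 at 21.1 ± 9.08 and 7 at 192 ± 16.1.

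Another 76 mitosis genes, all tested, served as the wider pathway. Against untreated, 2 rose in TBI (2.63% of the 76, against 0.921% of all genes) and none fell. In IgG RIT 26 rose (34.2%, against 5.75%) and 1 fell. In CD45 RIT 19 fell (25.0%, against 18.6%) and 2 rose (2.63%, against 14.5%). CD45 RIT was lower than IgG RIT in 51 (67.1%, against 17.5%) and lower than TBI in 35 (46.1%, against 19.0%), and was higher in 1 in each. IgG RIT against TBI had none. The median log2 fold change was 0.69 in TBI, 1.23 in IgG RIT and -1.09 in CD45 RIT. Without the CD45 RIT group 56 rose in TBI (8.04% of all genes), 69 rose and 1 fell in IgG RIT (16.8% of all genes rose), and 25 were higher in IgG RIT than in TBI (5.10% of all genes).

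Of these, Zw10, a kinetochore protein that recruits dynein, had 38.2, 22.7, 43.3 and 57.6 CPM in untreated and 74.2, 87.2, 84.8, 78.1 and 94.3 in TBI, with no overlap (log2 fold change 1.05 ± 0.24, edgeR adjusted p = 0.0293). Dlgap5, a spindle microtubule stabiliser, had 107, 60.6, 82.8 and 103 in untreated and 126, 165, 157, 175 and 265 in TBI (log2 fold change 1.01 ± 0.22, edgeR adjusted p = 0.0249). In IgG RIT the largest rises among called genes were of Fzr1, the Cdh1 activator of the anaphase-promoting complex, and Nusap1, a spindle-associated protein. Fzr1 had 228, 191, 227 and 221 CPM in untreated, 299, 373, 299, 393 and 1219.6 in TBI and 1509, 1220.0 and 1124 in IgG RIT (log2 fold change 2.57 ± 0.63, edgeR adjusted p = 0.0171), with TBI replicate 6 again near IgG RIT. Nusap1 was 2.03 ± 0.38 by edgeR (adjusted p = 0.00535). Cep55, needed for the final cut in cytokinesis, went the other way: 24.1, 11.2, 30.5 and 20.3 CPM in untreated, 6.49, 1.49 and 4.42 in IgG RIT and 0 counts in both CD45 RIT libraries. It was the 1 gene of the 76 that fell in IgG RIT (log2 fold change -2.38 ± 0.72, edgeR adjusted p = 0.0433).

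In CD45 RIT, Cenpt, an inner kinetochore protein, rose (log2 fold change 0.85 ± 0.26, edgeR adjusted p = 0.0234), with 69.4 and 53.8 CPM against 38.1, 32.8, 30.7 and 34.6 in untreated. Zwilch, a partner of Zw10, and Troap, a spindle-associated protein, each had 0 counts in replicate 1 and 2 in replicate 2, against 29.1 to 40.9 and 19.9 to 25.5 CPM in untreated. Cdc16, a subunit of the anaphase-promoting complex, was higher in CD45 RIT, at 141 and 175 CPM, than in IgG RIT, at 67.4, 67.2 and 72.3 (log2 fold change 1.20 ± 0.27, edgeR adjusted p = 0.00444).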

How the data were processed

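Expression was measured with RNA-seq (SMART-Seq v4 and Nextera XT, per the labels' protocols) in 14 libraries of sorted marrow cells. The authors deposited raw counts per gene. The submitters' processing notes name STAR 2.7.7a, FastQC 0.11.9, edgeR 3.36.0 and the build hg38, although the gene identifiers are mouse and all 54587 identifiers found in GENCODE M21 (GRCm38), the 49 members included, have its coordinates. The counting program and its use of strand are not given in the sources used here, so members that overlap genes on the other strand are uncertain. Without molecular identifiers, intervals and floors cover counting error only. The floor of 3 counts was 0.0965 to 0.183 CPM.

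The deposited counts were filtered with filterByExpr (minimum count 10, minimum total 15), scaled with TMM and fitted over all 14 libraries with edgeR 4.0.16 (limma 3.58.1, R 4.3.3): robust quasi-likelihood fit, 6 comparisons, Benjamini-Hochberg adjustment over 21509 genes, threshold 0.05. The scripts were tested on simulated data. Alternatives were other or no scaling factors, no filter, a replicate block, DESeq2 1.42.0, only the 2 groups compared, and leaving out each library. Leaving out the CD45 RIT group, alone and with TBI replicate 6, was added after seeing the data.

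The members, lists and markers were chosen with earlier results of these data known. Named with full values were a set fixed by role (Mki67, Top2a, Cdk1, Ccnb1, Plk1, Aurkb, Bub3, Cenpa, Mis12, Pmf1, Nsl1, Rangap1 and Cdc25b) and, per comparison, up to 3 members and 2 other mitosis genes with the largest called changes and groups that did not overlap. Other members are given to account for the list. Ahsp was not matched, so 19 of 20 erythroid markers were used. Each library was treated as 1 sample. Every pair of libraries within a group differed beyond counting noise (lowest chi-square per gene 16.3). That cannot show whether they came from separate mice, because separate preparations of the same cells can also differ beyond counting noise.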

Additional observations from a re-analysis of the deposited data

Results flagged for a closer look

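In groups of 4 or 5 libraries, a single library lay far from the others, by Dixon's criterion, in 16 of 78 groups examined (20.5%). Chance gives such a result in about 1 group in 20 where groups are independent and values normally distributed. The groups examined here share libraries and genes, so their share cannot be set against that rate. TBI replicate 6 was the high library for Mki67 (1405 CPM), Cdk1 (484), Ccna2 (1074), Cdc25b (766), Nek2 (221), Ube2c (1326), Pttg1 (94.6), Birc5 (1307) and Cenpa (608). It was also high in the ratio of Mki67 to Top2a counts (2.09), in the anaphase onset sum (1728 CPM of the total counts) and in the erythroid sum (194767 CPM).

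Untreated replicate 1 was the low library for Pmf1 (99.5 CPM). Untreated replicate 2 was low in the summed spindle motors and assembly factors (260.1 CPM) and in the summed central spindle and cytokinesis genes (503 CPM). TBI replicate 5 was high in the neutrophil sum (55.2 CPM). No explanation was tested for these values.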

How the results depend on the processing

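For the 49 members, the scaling, the test and the libraries in the fit moved the number called. Against untreated, the 10 members called higher in TBI became 22 with DESeq2, 40 with only the 2 groups, 42 without the CD45 RIT group and 42 without that group and TBI replicate 6. The 28 in IgG RIT became 49 in each of the last 3 settings. In CD45 RIT the 1 called higher became 2 with RLE factors and 3 with DESeq2, and the 14 called lower became 24 with no scaling factors. IgG RIT against TBI went from 0 to 10 with DESeq2, 5 with only the 2 groups, 21 without the CD45 RIT group and 39 without both. CD45 RIT against IgG RIT fell from 32 to 19 with only the 2 groups. Pttg1, the 1 called higher in CD45 RIT against TBI, was lost (0) with no scaling factors, no filter or only the 2 groups. The cause was not tested.

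Leaving out 1 library gave 3 to 9 higher in TBI, 21 to 24 in IgG RIT, 1 to 3 higher and 14 to 37 lower in CD45 RIT, 0 to 1 higher and 22 to 43 lower in CD45 RIT against TBI, 29 to 46 lower in CD45 RIT against IgG RIT, and 0 to 14 in IgG RIT against TBI. The number of all genes called higher moved too. It ran from 50 to 165 in TBI, 667 to 872 in IgG RIT and 0 to 806 in IgG RIT against TBI. The highest counts lower in the CD45 RIT comparisons rest on CD45 RIT replicate 2 alone. More of all genes were called lower in that fit as well.

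With the replicate number as a block, 0 members were called higher in TBI, 21 in IgG RIT and 2 in IgG RIT against TBI, and CD45 RIT had 12 lower and 1 higher. Of all 21509 genes tested there, 3 were called higher in TBI, 808 in IgG RIT and 47 in IgG RIT against TBI. CD45 RIT had 2417 genes lower and 1645 higher. Whether the replicate numbers pair the libraries cannot be decided here. Deviations of same-numbered libraries from their group means correlated at -0.0896 to 0.139 over 13 pairs, 1 of them above 0.1. Such deviations come from groups of only 2 to 5 libraries, and differently numbered pairs were not compared.

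Over all 49 members, the log2 fold changes that turned sign were uncalled in the fit of all libraries, though not in every other fit. They were most numerous in IgG RIT against TBI with no scaling factors (12) and in CD45 RIT against untreated without CD45 RIT replicate 2 (9), with RLE factors (7) and with DESeq2 (7). The values that follow are for the members named with full values. In CD45 RIT against untreated, Mki67 became 0.092 with both RLE factors and DESeq2, Rangap1 0.16 in both, and Prc1 -0.57 with no scaling factors. With no scaling factors Pmf1 was -0.095 in TBI and -0.019 in IgG RIT, and in IgG RIT against TBI Ccnb1 was -0.28, Plk1 -0.048, Bub3 -0.17, Nsl1 -0.054 and Nek2 -0.16. Leaving out 1 library, the CD45 RIT value ran from -9.68 to 0.90 for Mki67, -0.34 to 0.46 for Prc1, -0.77 to 1.49 for Ube2c and -3.50 to 0.29 for Birc5, and that of Pmf1 in TBI from -0.081 to 0.13 (the latter without the CD45 RIT group and TBI replicate 6). For Pttg1 in CD45 RIT against IgG RIT it ran from -0.057 to 0.34. The median over all genes was -0.28, -0.94 and -1.08 in TBI, IgG RIT and CD45 RIT with no scaling factors, and -0.04, -0.21 and -0.13 with RLE factors.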
